A study of Rattus norvegicus with 6 samples.

Results

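The pyruvate dehydrogenase complex, its kinases and its phosphatases were examined in the rat heart primordium before and after heartbeat initiation. The members were the 10 genes Pdha1, Pdhb, Dlat, Pdhx, Pdk1, Pdk2, Pdk3, Pdk4, Pdp1 and Pdp2, taken by name from the complex and the enzymes that phosphorylate and dephosphorylate it. They were measured by 12 of the 30367 probes of the array. Total RNA of heart primordia from E10 embryos, labelled as Wister rat, was hybridized to 1-color Agilent arrays, with 3 arrays for each of the pre- and post-heartbeat groups. The groups were told apart by how the middle of the primordium looked, flat before heartbeat initiation and raised after it. The definition in the paper also gave somite numbers, with touching ranges that lay higher after heartbeat initiation. Beating and developmental stage cannot be told apart in this contrast. Neither group carried a transgene or received a treatment according to the labels. The samples were described as biological replicates, and how many embryos gave one sample was not given in the sources used here.

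Pyruvate dehydrogenase turns pyruvate, the end product of glycolysis, into acetyl-CoA in the mitochondrial matrix and so joins glycolysis to the TCA cycle. The kinases switch the complex off by phosphorylating its E1 alpha subunit, and the phosphatases switch it on again. PDK1 is widely known as a target of the hypoxia-inducible factor HIF-1, and PDK4 as the isoform induced by fasting and fatty acids in adult muscle and heart.

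Signals are given on the log2 scale after subtraction of each array's 75th percentile, so that a value of 0 is a signal equal to that percentile. A log2 value of one probe cannot be set against that of another probe, because probes differ in how brightly they report. Of the 6 arrays, 3 lay on slide 1 (replicate 1 of the pre-heartbeat group with replicates 1 and 2 of the other) and 3 on slide 2 (replicates 2 and 3 of the former with replicate 3 of the latter), so each change was also computed with the slide as a block and within each slide. The 75th percentile ranged from 1143 to 1694 intensity units, and 0 spots were saturated. All 9 markers of cardiac muscle were well above background on all 6 arrays, and their summed signal on the log2 scale was 8.50 to 9.26 before and 9.38 to 9.65 after heartbeat initiation. In the same order, and with the number of listed markers that were on the array, it was 3.89 to 4.003 and 3.34 to 3.58 for 5 of 5 endothelial markers, and 5.50 to 5.58 and 4.87 to 5.23 for 5 of 5 markers of yolk sac endoderm. For neural ectoderm, of which 3 of 5 markers were on the array, it was 2.67 to 2.87 and 1.28 to 1.57, and for 5 of 5 markers of paraxial mesoderm it was 4.42 to 4.57 and 4.65 to 4.71. It overlapped between the groups for 5 of 5 erythroid markers, at -2.87 to -1.93 and -2.98 to -2.18, and for 5 of 5 markers of definitive endoderm, at -0.10 to 0.36 and -0.19 to 0.07. Of these lists, Gata1, Epb42, Shh and Mesp2 were well above background on 0 arrays. A single bright gene made up most of several sums, with Kdr at 84.8% to 92% of the endothelial, Ttr at 71.5% to 92.7% of the yolk sac and Otx2 at 72.3% to 93.8% of the neural signal. These shares show which probe dominates a sum of signals. They are not shares of RNA, because probes differ in how brightly they report. Within these lists, Tie1 (log2 fold change 0.50) and Afp (0.24) lay on the other side of 0 from Kdr (-0.55) and Ttr (-0.58), and Sox2 had -0.21 against -1.56 for Otx2. Of single markers, 1 of 9 cardiac genes (Myl2, limma adjusted p = 0.00463) was called higher and Otx2 (limma adjusted p = 0.0201) was called lower. The other tested markers missed the threshold. Gata1, Epb42, Sox17, Shh, Cdx2, Pax6, Meox1 and Mesp2 did not pass the background filter and were not tested. With the slide as a block, Myh6 (limma adjusted p = 0.0348) and Myh7 (limma adjusted p = 0.0239) were also called higher. The part of these markers in the values of the pyruvate dehydrogenase genes was not tested. In RNA of a whole tissue, fewer cells of a type and less RNA per cell cannot be told apart.

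Of the 10 genes, 9 passed the background filter and were tested, and all 9 had a higher mean signal in the post-heartbeat group, by 1.06 to 1.45 fold. None of the 9 passed the test across all probes, by limma with Benjamini-Hochberg adjustment (0 genes at an adjusted p under 0.05). Of all 19299 tested probes, 0.124% were called higher and 0.0207% lower in this test. With the slide as a block, 0 of the 9 genes were called, against 1.09% of all probes higher and 0.42% lower. At an unadjusted limma p under 0.05, there were 2 genes (Pdk1 and Pdp1) with and without the slide as a block, against 6.995% of all probes without the block and 9.63% with it. The selection named in the methods of the study, a change of at least 1.5 fold together with an unadjusted p under 0.05, took 0 of the 9 genes, against 1.9% of all probes higher and 1.16% lower. On its p alone, 3 genes were under 0.05, all higher, namely Pdhb, Pdk1 and Pdp1, against 3.47% of all probes higher and 3.4% lower.

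In the same 3 genes, every post-heartbeat array had a higher signal than every pre-heartbeat array. This was the case for 5.38% of all tested probes, and the opposite order, which 0 of the 9 genes had, for 6.17%. The median log2 fold change of the 9 genes was 0.12, and that of all tested probes was -0.03. A positive change was found in 44.7% of all tested probes. With the slide as a block, 8 of the 9 genes had a positive change, with a median of 0.18 against -0.02 over all tested probes, and Pdk2 was the exception. Of the 9 genes, 5 had a higher mean after heartbeat initiation within both slides, namely Pdha1, Pdhb, Pdk1, Pdp1 and Pdp2. Each slide held only 1 or 2 arrays of a group. The share of all tested probes in this order is not given here, so the count has no background to be read against.

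**Figure D1:**
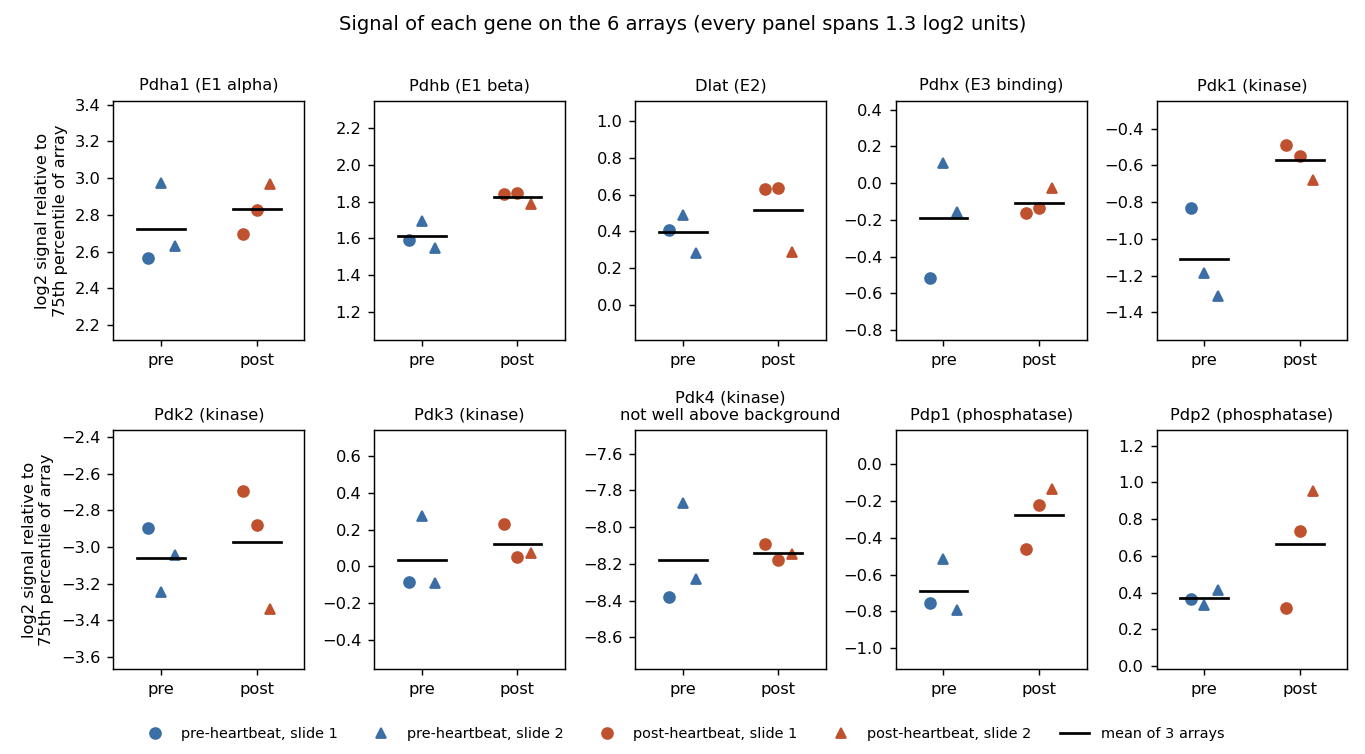
Log2 signal less the 75th percentile of that array, drawn for each of the 10 genes, with 1 point per array, circles for slide 1, triangles for slide 2 and a line at the mean of 3 arrays. The groups do not overlap for Pdhb, Pdk1 and Pdp1. They overlap for the other genes, and Pdk4 was not well above background on any array. Each panel spans the same range, and levels are not comparable between panels.

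Pdk1, a kinase of the E1 alpha subunit, had the largest change of the 9 genes. Its log2 signal was -0.83, -1.19 and -1.31 on the arrays of the pre-heartbeat group and -0.49, -0.55 and -0.68 on those of the post-heartbeat group. The 3 post-heartbeat arrays lay close together and above all pre-heartbeat arrays, and the gap between the lowest post-heartbeat and the highest pre-heartbeat array was 0.15. The mean log2 signal was -1.11 ± 0.25 before the heartbeat and -0.57 ± 0.10 after it (SD, n = 3 in each group). On the log2 scale the change was 0.54 with an SE of 0.17, a 1.45 fold higher signal with a 95% interval of 1.101 to 1.92 fold. This did not pass the adjustment over all probes (limma, adjusted p = 0.436), and the two-sided exact permutation test gave p = 0.1, the smallest value that 3 arrays against 3 allow. The change on the log2 scale was 0.31 within slide 1 and 0.57 within slide 2. With the slide as a block it was 0.44 (limma, adjusted p = 0.251), and slide 2 differed from slide 1 by -0.29 in the same fit (limma, adjusted p = 0.182). Pre-heartbeat replicate 1, the only array of its group on slide 1, was the highest of the 3 pre-heartbeat arrays.

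The single Pdk1 probe was annotated at chr3:54302974-54303274 on the plus strand of rn4, an interval of 301 bases for a probe of 60 bases. Its sequence is shown because the largest change among these genes rests on it alone. It is followed by the 250 bases before the start site of Pdk1 in RefSeq, at chr3:77113264-77113513 on the plus strand of GRCr8, a later genome build than that of the array. Capitals in the promoter mark the core of the hypoxia response element, ACGTG or GCGTG, on either strand. The exon that holds the probe was not annotated in the sources used here.
Pdk1 probe: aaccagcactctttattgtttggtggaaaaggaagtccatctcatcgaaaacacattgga
Pdk1 promoter: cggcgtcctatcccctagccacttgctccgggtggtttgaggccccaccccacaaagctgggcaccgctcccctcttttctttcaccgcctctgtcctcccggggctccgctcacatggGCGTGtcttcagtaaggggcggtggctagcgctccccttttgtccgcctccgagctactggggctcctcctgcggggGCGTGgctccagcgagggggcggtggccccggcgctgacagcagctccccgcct

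Pdk1 had 4 matches to this core in the window of 250 bases before to 50 bases after its start site, beginning at -131, -54, 21 and 30 from the start site, and the first pair is in the stretch printed. The core was found in the windows of 7 of the 8 genes for which RefSeq gave one, and in 41.6% of all 33469 promoters of the same length. The letters CACGTG hold the core on both strands and were counted on each, as in Pdhb and Pdk2. There were 5 matches each for Pdhb and Pdk3, 3 each for Pdha1 and Dlat, 2 each for Pdhx and Pdk2 and 0 for Pdk4. No window was given for Pdp1 and Pdp2. The groups of Pdk3, Pdha1, Dlat and Pdk2 overlapped in signal. Whether the number of matches goes with the change was not tested. A match is a description of the letters, and binding was not measured on these arrays.

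Pdk2, another kinase of the complex and one of broad tissue distribution, had a difference between the group means that was small compared with its spread. Its log2 signal was -2.90, -3.25 and -3.04 on the arrays of the pre-heartbeat group and -2.69, -2.88 and -3.34 on those of the post-heartbeat group. Both the highest and the lowest value of the 6 arrays belonged to the post-heartbeat group. It differed between the groups by a log2 fold change of 0.09 with an SE of 0.20 (limma, adjusted p = 0.903), and the 95% interval of 0.763 to 1.49 fold holds changes in both directions. The change was 0.11 within slide 1 and -0.19 within slide 2, and it turned to -0.04 with the slide as a block. Slide 2 was lower than slide 1 for this gene, at -0.40 on the log2 scale (limma, adjusted p = 0.108).

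Pdk3, the kinase isoform encoded on the X chromosome, had a log2 signal of -0.08, 0.27 and -0.09 on the arrays of the pre-heartbeat group and 0.23, 0.05 and 0.07 on those of the post-heartbeat group. Pre-heartbeat replicate 2 was the highest array of all, and the groups overlapped. The change, as a log2 fold, was 0.09 with an SE of 0.16 (limma, adjusted p = 0.882), and the 95% interval was 0.820 to 1.38 fold. The exact permutation test gave p = 0.7 for Pdk2 and 0.6 for Pdk3.

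Pdk4 was well above background on 0 of 6 arrays, and no change was computed for it. Its single probe gave log2 signals of -8.38 to -7.87 before and -8.18 to -8.09 after heartbeat initiation, which only bound the level from above. The probe lies at chr4:30239150-30241038 on the minus strand of rn4, an interval of 1889 bases. Its sequence and the 250 bases before the Pdk4 start site, at chr4:34568330-34568579 on the minus strand of GRCr8, are shown with no stretch in capitals.
Pdk4 probe: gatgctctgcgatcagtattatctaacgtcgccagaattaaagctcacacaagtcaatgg
Pdk4 promoter: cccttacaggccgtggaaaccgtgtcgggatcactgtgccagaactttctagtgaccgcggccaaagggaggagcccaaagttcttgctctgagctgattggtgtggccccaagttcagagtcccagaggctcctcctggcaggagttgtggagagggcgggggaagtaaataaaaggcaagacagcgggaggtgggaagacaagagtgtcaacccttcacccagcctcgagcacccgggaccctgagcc

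Among the phosphatases, Pdp1, which encodes a calcium-stimulated catalytic subunit, had the second largest change of the 9 genes. Its log2 signal was -0.75, -0.52 and -0.79 on the arrays of the pre-heartbeat group and -0.46, -0.22 and -0.14 on those of the post-heartbeat group. There was no overlap, but post-heartbeat replicate 1 was only 0.05 above pre-heartbeat replicate 2. The mean was -0.69 ± 0.15 before the heartbeat and -0.27 ± 0.17 after it (SD, n = 3 in each group). The log2 fold change was 0.41 with an SE of 0.16, a 1.33 fold higher signal with a 95% interval of 1.03 to 1.72 fold. It did not pass the adjustment over all probes (limma, adjusted p = 0.622), and the exact permutation test gave p = 0.1, again the smallest possible. The change was 0.41 within slide 1 and 0.52 within slide 2, and 0.47 with the slide as a block (limma, adjusted p = 0.279). Under quantile normalization and in the deposited ratios, the groups of Pdp1 overlapped, while those of Pdhb and Pdk1 remained apart. The probe is annotated at chr5:26234540-26234599 on the minus strand of rn4.

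Pdp2, the other catalytic phosphatase subunit, differed among the post-heartbeat arrays more than among the pre-heartbeat arrays. Its log2 signal was 0.37, 0.33 and 0.42 on the arrays of the pre-heartbeat group and 0.31, 0.73 and 0.95 on those of the post-heartbeat group. Post-heartbeat replicate 1 was the lowest of the 6 arrays, and post-heartbeat replicates 2 and 3 were the highest. On the log2 scale the change was 0.29 with an SE of 0.19 (limma, adjusted p = 0.864) and a 95% interval of 0.902 to 1.67 fold, and the exact permutation test gave p = 0.4. Within slide 1 the change was 0.16 and within slide 2 it was 0.58. Leaving out 1 array moved this change between 0.15 and 0.47.

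The E1 component, which carries out the thiamine-dependent decarboxylation of pyruvate, is made of an alpha subunit from Pdha1 and a beta subunit from Pdhb. Pdhb had a log2 signal of 1.59, 1.70 and 1.55 on the arrays of the pre-heartbeat group and 1.84, 1.85 and 1.79 on those of the post-heartbeat group. The arrays of each group lay close together, and the groups were separated by a gap of 0.09. The mean was 1.61 ± 0.08 before the heartbeat and 1.82 ± 0.03 after it (SD, n = 3 in each group). It differed between the groups by a log2 fold change of 0.21 with an SE of 0.13, a 1.16 fold higher signal with a 95% interval of 0.941 to 1.43 fold (limma, adjusted p = 0.864; exact permutation p = 0.1). It was 0.25 within slide 1 and 0.16 within slide 2. The Pdhb probe, annotated over 392 bases at chr15:18740251-18740642 on the plus strand of rn4, is shown as the probe of an E1 subunit whose groups did not overlap.
Pdhb probe: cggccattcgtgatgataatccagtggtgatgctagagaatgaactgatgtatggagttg

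Pdha1, the subunit that carries the phosphorylation sites, was measured by 2 probes on chromosome X. The brighter probe had a log2 signal of 2.57, 2.97 and 2.63 on the arrays of the pre-heartbeat group and 2.70, 2.83 and 2.97 on those of the post-heartbeat group. Pre-heartbeat replicate 2 and post-heartbeat replicate 3, both on slide 2, were the highest arrays and equal within 0.01. The change, as a log2 fold, was 0.11 with an SE of 0.17 (limma, adjusted p = 0.868; exact permutation p = 0.6) and a 95% interval of 0.822 to 1.41 fold. The second probe gave 0.20 with an SE of 0.15 (limma, adjusted p = 0.864), and its groups also overlapped.

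Dlat encodes E2, the acetyltransferase that forms the core of the complex. Its log2 signal was 0.41, 0.49 and 0.28 on the arrays of the pre-heartbeat group and 0.63, 0.63 and 0.29 on those of the post-heartbeat group. Post-heartbeat replicate 3 lay at the level of the lowest pre-heartbeat array, and the other post-heartbeat arrays were above all of that group. The log2 fold change was 0.12 with an SE of 0.16 (limma, adjusted p = 0.864; exact permutation p = 0.3). The change was 0.22 within slide 1 and -0.10 within slide 2.

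Pdhx encodes the E3-binding protein, which anchors dihydrolipoamide dehydrogenase to the E2 core, and was measured by 2 probes on chromosome 3. The brighter probe had a log2 signal of -0.51, 0.11 and -0.16 on the arrays of the pre-heartbeat group and -0.16, -0.13 and -0.03 on those of the post-heartbeat group. The pre-heartbeat arrays held both the lowest and the highest value. On the log2 scale the change was 0.08 with an SE of 0.19 (limma, adjusted p = 0.907; exact permutation p = 0.8). The dimmer probe had a log2 signal of -5.21, -5.22 and -5.37 before and -5.07, -5.05 and -5.15 after heartbeat initiation. Its groups did not overlap, with a change of 0.18 and an SE of 0.13 (limma, adjusted p = 0.864), so the 2 probes of this gene differed in the order of the arrays.

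**Figure D2:**
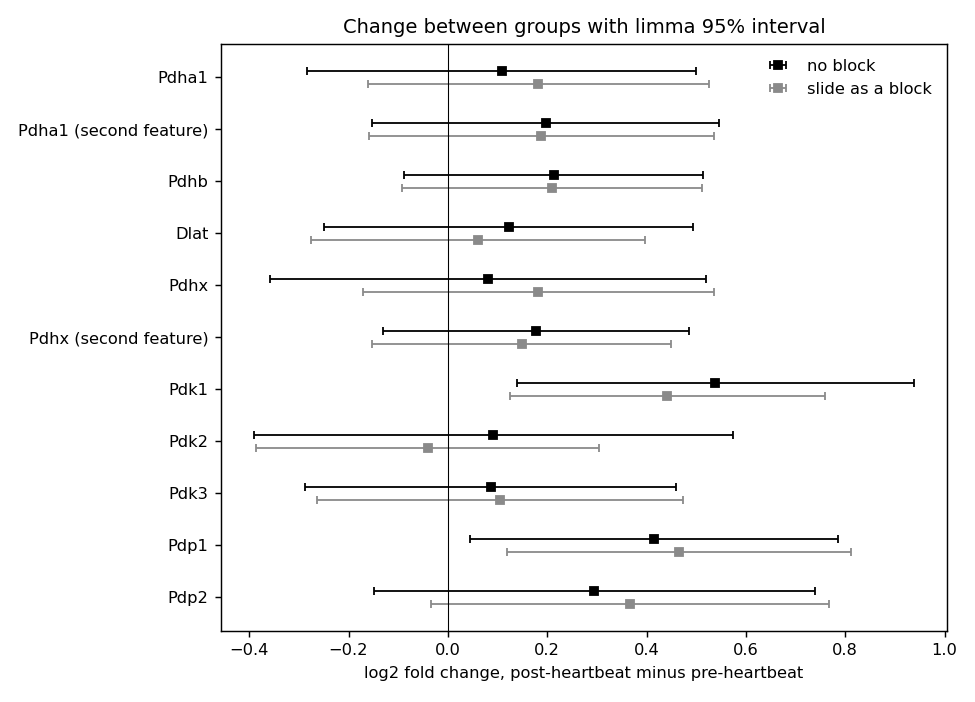
Log2 fold change of the post-heartbeat over the pre-heartbeat group for each tested probe of the 9 genes, with the 95% interval from limma, without a block in black and with the slide as a block in grey. The intervals of Pdk1 and Pdp1 lie above 0 in both fits and those of the other genes include 0. These intervals are not adjusted for the number of probes, and 0 genes passed after adjustment.

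In the plot of changes with their intervals, the point estimate of each gene except Pdk2 lay above 0 in both fits. Intervals were wide compared with the changes: for the 7 genes other than Pdk1 and Pdp1 they held a rise as well as a fall, so a difference was not detectable with 3 arrays in a group and is not shown to be absent. The median SE over all tested probes was 0.19 on the log2 scale, and the SE of the 9 genes ranged from 0.13 to 0.20.

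A kinase and a phosphatase were also set against each other within each array, as the log2 signal of one probe minus that of the other. Such a difference shows whether both moved unequally, not which was more abundant. Pdk1 minus Pdp1 was -0.08, -0.67 and -0.52 on the arrays of the pre-heartbeat group and -0.02, -0.33 and -0.54 on those of the post-heartbeat group. The groups overlapped, and the mean moved by 0.12 while the SD within the groups was 0.31 and 0.26. On both sides of heartbeat initiation, replicate 1, which lay on slide 1, had the highest difference. Pdk1 minus Pdp2 moved by 0.24. The difference moved the other way for Pdk2 and Pdk3, by -0.32 for Pdk2 minus Pdp1, -0.20 for Pdk2 minus Pdp2, -0.33 for Pdk3 minus Pdp1 and -0.21 for Pdk3 minus Pdp2. The groups overlapped in all 6 pairs. Of these, Pdk3 minus Pdp1 came closest to separate groups, with 0.67 to 0.79 on the pre-heartbeat arrays and 0.21, 0.28 and 0.69 on the post-heartbeat arrays.

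**Figure D3:**
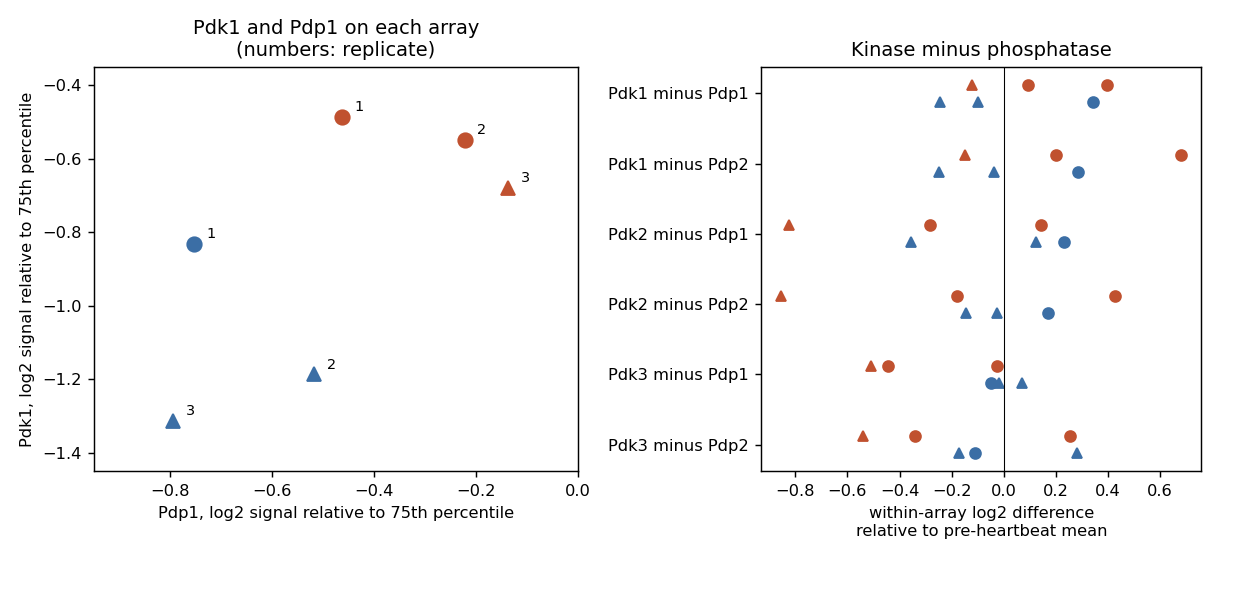
Left, log2 signal of Pdk1 against that of Pdp1 on each of the 6 arrays, with the replicate number beside each point. Right, the within-array difference of each kinase and phosphatase pair relative to its pre-heartbeat mean, with circles for slide 1 and triangles for slide 2. Both genes are higher on each post-heartbeat array than on each pre-heartbeat array, and the groups overlap in all 6 differences.

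Other genes that feed, build or regulate the complex were taken from a list of 48 genes, of which 47 were on the array and 40 were tested. In this list, 0 genes were called by limma after adjustment, against 0.124% of all tested probes called higher and 0.0207% lower. A positive change was found in 27 of 40, against 44.7% of all tested probes. The median was 0.11 on the log2 scale, against -0.03 over all tested probes. With the slide as a block, 1 gene was called higher and 0 lower, against 1.09% and 0.42% of all tested probes. That gene was Me3, a mitochondrial malic enzyme that forms pyruvate from malate. Its log2 signal was -6.37, -5.98 and -5.89 on the arrays of the pre-heartbeat group and -5.45, -5.77 and -5.07 on those of the post-heartbeat group, with no overlap. These are dim values, not far above the background. The marker Sox17, at -7.05 to -6.28 before heartbeat initiation, was well above background on only 2 pre-heartbeat arrays and 1 post-heartbeat array. Me3 rose by 0.81 with the slide as a block (limma, adjusted p = 0.0445), and the change was 0.65 without the block (limma, adjusted p = 0.541).

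Every post-heartbeat array was above every pre-heartbeat array in 6 of the 40 genes, and below in 1, against the 5.38% and 6.17% of all tested probes. Besides Me3 and Mpc1, the 6 were Ldhb, Ppargc1b, Nr3c1 and Sirt3, and the single gene in the opposite order was Gpt2; these 5 were picked out after their values had been seen. Ldhb, the heart-type lactate dehydrogenase subunit that interconverts lactate and pyruvate, had a log2 signal of 2.09, 2.57 and 2.38 before and 2.97, 3.096 and 3.06 after heartbeat initiation. The change of 0.70 did not pass the threshold without the slide as a block (limma, adjusted p = 0.239) or with it (limma, adjusted p = 0.0562). Ppargc1b, a coactivator of mitochondrial genes, had a change of 1.14 (limma, adjusted p = 0.239), and with the slide as a block the adjusted p in limma was 0.120. Its log2 signal was low, at -4.99, -5.74 and -4.67 before and -4.00, -4.04 and -3.94 after heartbeat initiation. The SD was 0.55 before and 0.05 after, so the size of this change rests on scattered pre-heartbeat arrays. Nr3c1, the glucocorticoid receptor, had a change of 0.99 (limma, adjusted p = 0.324). Its log2 signal was dim, at -6.15, -6.66 and -7.22 before and -5.80, -5.54 and -5.71 after heartbeat initiation. The marker Shh, at -6.97 to -6.86 before heartbeat initiation, was well above background on 0 arrays. The size of a change from such dim values is uncertain. The mitochondrial deacylase gene Sirt3 had a change of 0.39 (limma, adjusted p = 0.498), and Gpt2, a mitochondrial alanine transaminase, had -0.32 (limma, adjusted p = 0.746).

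Dld, the E3 dehydrogenase that the complex shares with related complexes, had a log2 signal of 1.78, 2.11 and 1.92 before and 1.87, 1.98 and 2.08 after heartbeat initiation. These values overlapped, and the change was 0.04 (limma, adjusted p = 0.948). Pdpr, the regulatory subunit of the phosphatase, had a change of -0.23 (limma, adjusted p = 0.864) with overlapping groups. Mpc1 and Mpc2 encode the carrier that brings pyruvate into mitochondria. Mpc1 had a log2 signal of 0.24, 0.38 and 0.25 before and 0.42, 0.56 and 0.50 after heartbeat initiation, with no overlap and a change of 0.20 (limma, adjusted p = 0.864). The change of Mpc2 was 0.13 with overlapping groups. Pc, which carboxylates pyruvate to oxaloacetate, had a change of 0.20, and Lias, which makes the lipoyl group of E2, had 0.02.

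Among regulators known to act on kinase genes, 7 of 9 tested had a positive change, against 44.7% of all tested probes. Of these 9, 0 were called with or without the slide as a block, against the shares of all tested probes given above. Negative changes were those of Pparg (-0.37) and Esrrg. Hif1a, which encodes the alpha subunit of HIF-1, had a change of 0.14 (limma, adjusted p = 0.920) with overlapping groups. Arnt, which encodes its partner subunit, was not tested. Esrra, an orphan nuclear receptor, had a change of 0.64, with a 95% interval on the log2 scale of -0.27 to 1.55. Its relative Esrrg had a change of -0.01 and the coactivator Ppargc1a one of 0.03, with intervals of -1.14 to 1.12 and -1.05 to 1.12. Each of these intervals is wider than that of any of the 9 genes of the complex. With the slide as a block, the change was 0.35 for Esrra, 0.36 for Esrrg and 0.43 for Ppargc1a. The limma adjusted p in that fit was 0.819, 0.890 and 0.419 in the same order.

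**Figure D4:**
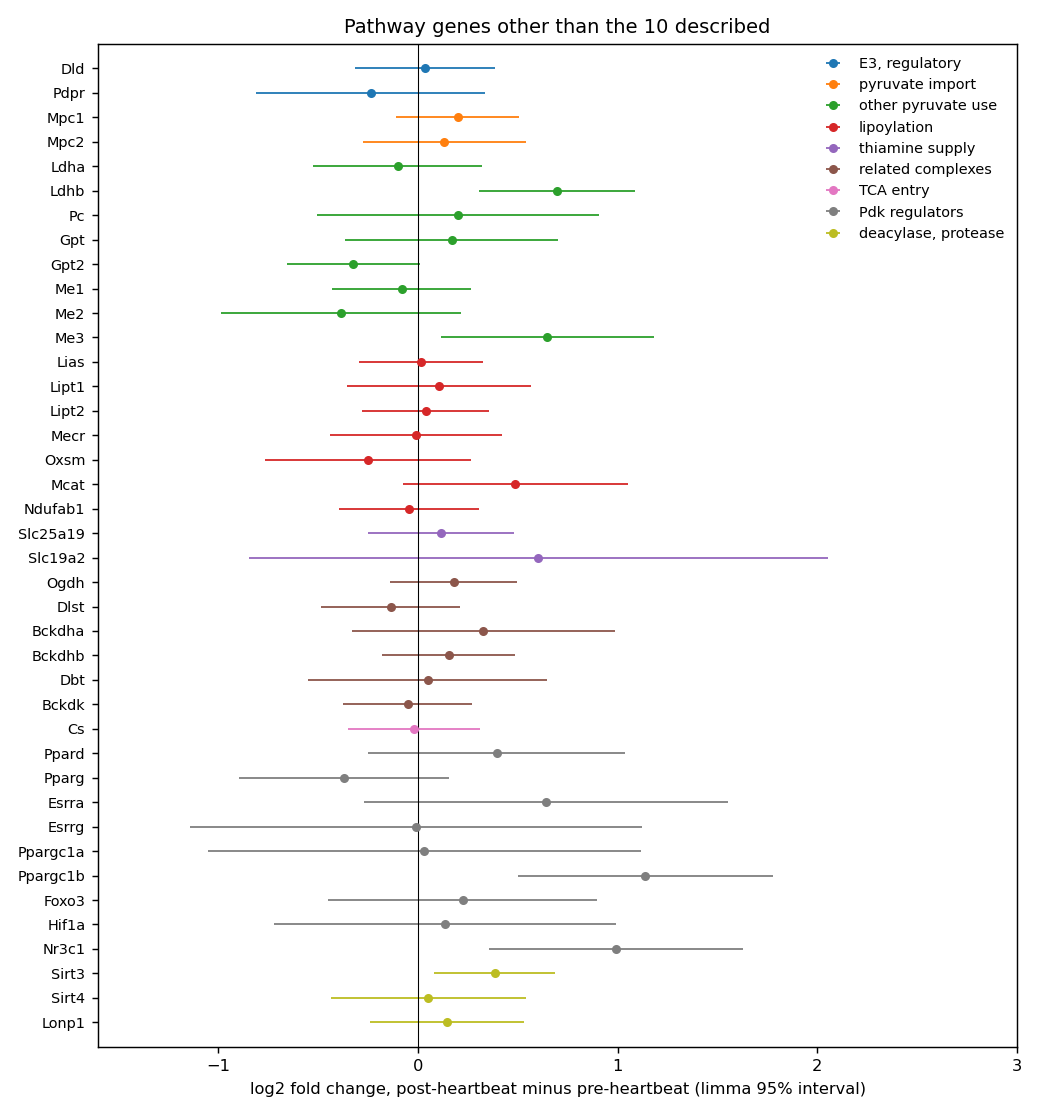
Log2 fold change of the post-heartbeat over the pre-heartbeat group for the 40 tested genes of the pathway list, with the 95% interval from limma, colored by function. 27 of the 40 points lie above 0, against 44.7% of all tested probes with a positive change. Without the slide as a block, 0 genes passed the adjusted test.

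The genes whose signal over the 6 arrays followed that of Pdk1 most closely, among 12684 genes with a symbol, were Lefty2 with a Pearson r of 0.993, Cck with 0.993 and Angptl4 with 0.988. For Pdp1 they were Wrb with 0.983, Pcdh20 with 0.978 and Vnn1 with 0.978. These are descriptions over 6 arrays that share their group and slide, and the highest of so many values. Of these 6 genes, Lefty2 had a change of 2.24 and Vnn1 of 0.85, and the remaining 4 had 0.22 to 0.53. All 6 missed the threshold without the block, with adjusted p of 0.175 or more in limma, and with the slide as a block Lefty2 (adjusted p = 0.0082) and Vnn1 (adjusted p = 0.0362) passed it.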

How the data were processed

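Total RNA of E10 rat heart primordia was measured on 6 one-color arrays. For every spot the authors deposited a processed signal, the intensity used here, which Agilent Feature Extraction 10.7.3.1 (submitters' processing notes) had background-subtracted. The authors also deposited a ratio for each probe from GeneSpring (75th percentile shift, baseline at the median of all samples). Differences between arrays in these ratios were within 0.01 (log2) of those in the processed signal for 100% of probes, once a constant per array pair was removed.

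Control spots and outlier flags were left out, the log2 signal of each spot less the 75th percentile of its array was averaged over spots of a probe, and a probe was tested where at least 0.5 of its spots were flagged well above background on each array of either group. This left 19299 of 30367 probes. The brightest tested probe stood for a gene. Depth has no equivalent of a read count, and the number of arrays limits the precision. Probe positions come from the annotation in the array files (rn4). Of the 9 tested genes, 8 had a transcript found in the current RefSeq table, and Pdhx kept the symbol of the file.

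Groups were compared with limma 3.58.1 in R 4.3.3 (lmFit and eBayes, Benjamini-Hochberg adjustment over all tested probes, threshold 0.05), without a block as the main design. Intervals are at 95%. Single genes were also compared by a two-sided exact permutation test over 20 splits. The methods' Tukey HSD test equals, with 2 groups, the pooled comparison of means. The procedure was tested on simulated data. Promoters are those of RefSeq on GRCr8.

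Genes named are all 10 members, the pathway genes called with or without the slide as a block, Dld, Pdpr, Mpc1, Mpc2, Pc, Lias, Esrra, Esrrg and Ppargc1a, and the 3 genes most correlated with each of Pdk1 and Pdp1. Ldhb, Ppargc1b, Nr3c1, Sirt3 and Gpt2 were named outside this rule, after their values had been seen. Hif1a, Pparg and the untested Arnt were also named outside it, with the values known. The members and lists were chosen with earlier results of these data known, and the lists were written from general knowledge. Alternatives were the replicate number or slide as a block, normexp with an offset of 50, quantile normalization, another percentile basis, other filters, the deposited ratios, the methods' test, the mean of a gene's probes and leaving out each array. The count of genes with separate groups under each scaling was added after seeing the data.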

Additional observations from a re-analysis of the deposited data

How the results depend on the processing

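The count of called genes of the complex, its kinases and its phosphatases was 0 under every alternative run. Over all tested probes, 24 were called higher and 4 lower. The counts were 110 and 56 with the replicate number as a block, 211 and 81 with the slide as a block, and 366 and 223 in the methods' selection. Higher calls numbered 43 with normexp, 11 with quantile normalization and 10 with the deposited ratios. Without a filter on dim probes there were 1 and 0, by the methods' test with Benjamini-Hochberg adjustment 0 and 0, and leaving out 1 array gave 0 to 1 in either direction; the cause was not tested. Same-numbered arrays deviated together with correlations of 0.648, -0.277 and 0.494, so the numbers were not taken to pair the samples. Pairs of a pre- and a post-heartbeat array on the same slide had 0.494 to 0.648. Pairs on different slides had -0.728 to -0.277.

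Pdk2 turned to -0.041 with the slide as a block, to -0.000373 without pre-heartbeat replicate 2 and to -0.046 without post-heartbeat replicate 1, and reached 0.27 without another array. Pdhx turned to -0.083 without pre-heartbeat replicate 1, with up to 0.23 without another array. The other 7 genes kept a positive change, from 0.44 to 0.68 for Pdk1 and from 0.35 to 0.51 for Pdp1, with adjusted p of at least 0.233 and 0.279. Groups were apart, with the post-heartbeat arrays higher, in 2 to 3 of 9 genes under the scalings, against 3.86% to 5.6% of all tested probes, and in 3 to 5 of 9 without 1 array, against 6.98% to 16.5%. The 5 genes came without pre-heartbeat replicate 2 (9.96% of all probes) or post-heartbeat replicate 3 (16.5%).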
